A study of Homo sapiens with 4 samples.

Results

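The G1 cyclins and the kinases they work with were followed at the RNA level in prostate cancer cells with and without UGT2B17. The members were chosen by symbol: the D cyclins CCND1, CCND2 and CCND3, the E cyclins CCNE1 and CCNE2, the kinases CDK2, CDK4, CDK6 and CDK7, and CCNH, the cyclin partner of CDK7. These were 10 of the 60880 genes listed, and all 10 were tested.

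RNA-Seq was run on 2 libraries of LNCaP95 (replicates 1 and 2) and 2 libraries of LN95(KO) (replicates 3 and 4). LNCaP95 derives from the LNCaP prostate cancer line but needs no androgen to grow, and LN95(KO) is the same line after CRISPR targeting of UGT2B17, the gene of an enzyme that glucuronidates androgens. Both lines were grown in RPMI1640 medium with charcoal-stripped serum, which lacks most steroids, and neither was treated with an agent. The study set out to compare their transcriptomes. How many knockout clones were used was not stated. The labels call the line LN95 in all 4 libraries, whereas the text of the series writes LNCaP for the knockout. The labels do not say whether libraries came from separate cultures, so the p-values measure only the spread between these libraries, which may be technical.

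Cells decide in G1 phase whether to copy their genome. Mitogens raise the D cyclins, which bind and switch on CDK4 and CDK6. These kinases begin to phosphorylate the retinoblastoma protein, which otherwise holds the E2F transcription factors in check. E cyclins then activate CDK2, which carries the cell into S phase, and CDK7 with cyclin H and MNAT1 forms the kinase that activates the other cyclin-dependent kinases and also belongs to the transcription factor TFIIH. Androgens are known to drive entry into the cycle in prostate cells.

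Gene reads ranged from 17330338 to 18813193 per library. UGT2B17 itself had counts of 2788 and 2748 in LNCaP95 against 21 and 20 in LN95(KO), giving a log2 fold change of −7.04 (adjusted p 1.18e-18, SE 0.10). Reads that did not align made up 3.85% and 3.96% of LNCaP95 entries against 8.05% and 7.71% for LN95(KO), and their part in the results was not tested. Luminal prostate markers were present in every library, HOXB13 with counts of 10283 and 10070 in LNCaP95 against 6837 and 7342 in LN95(KO), and KRT8 with 11085 and 11112 against 14168 and 14233. Summed markers of leukocytes stayed at or below 0.395 CPM (counts per 1000000 reads, with library sizes scaled by TMM factors) with CD3E at 0. The 4 fibroblast markers summed to 29.4 to 29.9 CPM in LNCaP95 and 32.0 to 34.5 CPM in LN95(KO), nearly all from COL1A1, with DCN at 0. LUM, another of them, went the other way, with counts of 24 and 19 in LNCaP95 against 0 and 0 in LN95(KO). Endothelial markers summed to 0.433 to 0.436 and 2.76 to 3.17 CPM, all of it VWF with CDH5 at 0 and 1 of 3 markers unmatched. The 3 basal markers summed to 0.162 to 0.164 and 1.02 to 1.26 CPM. In LN95(KO) this was mostly KRT14, with counts of 17 and 20 against 1 and 2 in LNCaP95, while TP63 had 0 and 0 against 2 and 0. The 3 neuroendocrine markers summed to 2.44 to 2.45 and 2.30 to 2.37 CPM with CHGA at 0. The part of these lists in the results was not tested.

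Of the 10 members, CDK2 was higher and CCND2 was lower in LN95(KO), and the other 8 were not called. A gene was called when its adjusted p (edgeR quasi-likelihood test, Benjamini-Hochberg adjustment over 15626 genes) was under 0.05 and its fold change was over 2. Across all genes tested, 18.0% were called, 8.86% higher and 9.13% lower, so 2 of 10 was near the background. The adjusted p alone was under 0.05 for 6 members, 5 higher and 1 lower, against 59.8% of all genes. The CPM values of the groups did not overlap for 9 members, against 79.8% of all genes. The median log2 fold change of the members was 0.18 and the median of its absolute size 0.24, beside −0.01 and 0.37 for all genes tested. In bulk RNA, fewer cells of a kind (here, of a phase of the cycle) and less RNA per cell cannot be told apart.

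**Figure D1:**
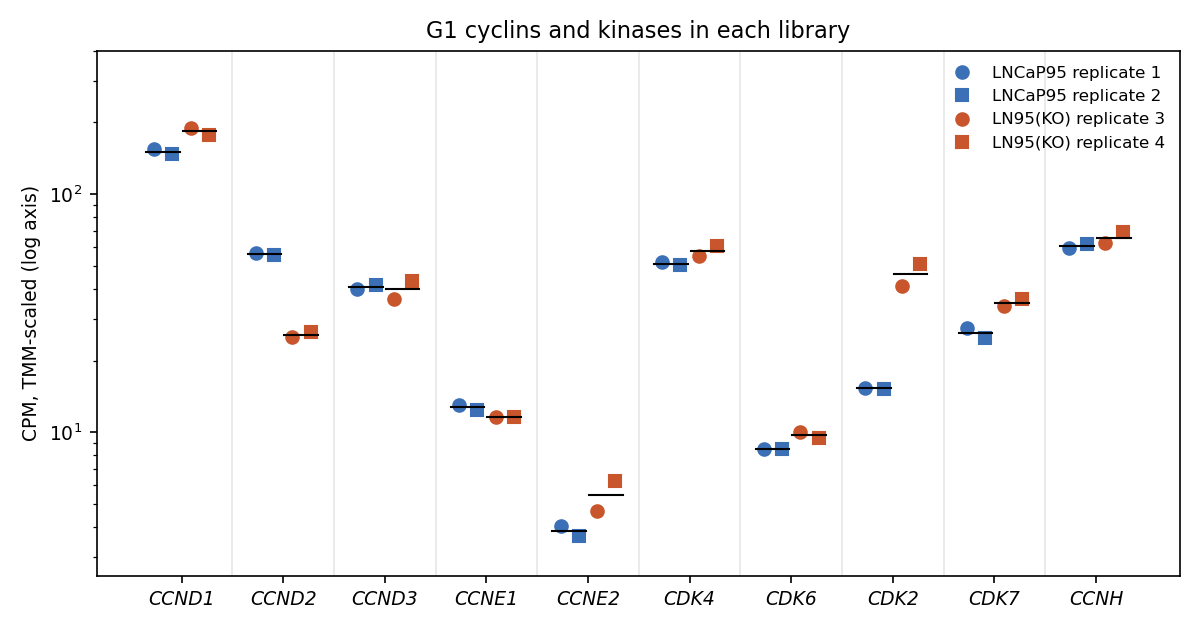
CPM on a log axis for each of the 10 members, with 1 point per library (blue, LNCaP95; orange, LN95(KO)) and a black line at each group's mean of 2 libraries. CDK2 stood at 15.3 CPM in both LNCaP95 libraries and at 41.2 and 51.0 CPM in LN95(KO), CCND2 went from 56.4 and 55.3 to 25.1 and 26.3 CPM, and only CCND3 had groups that overlapped.

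Among the D cyclins, CCND2 fell, while CCND1 and CCND3 kept levels within 1.22-fold of LNCaP95. CCND2 encodes cyclin D2 and lies on chromosome 12 (plus strand), positions 4378937 to 4414519 of GRCh37 (ENSG00000118971.7_4). It had counts of 1042 and 1014 in LNCaP95 against 445 and 480 in LN95(KO). Both knockout libraries lay below both LNCaP95 libraries, and the replicates of each group lay close together. In CPM the group means were 55.8 ± 0.772 and 25.7 ± 0.820 (SD, n = 2 libraries each). The log2 fold change of CCND2 was −1.12 (adjusted p 3.27e-10, SE 0.07), 2.17-fold lower in LN95(KO). Across all genes tested, 15.9% had a change of at least this size. The interval of the change reached from −1.27 to −0.97 (95%), and a test against a 2-fold change did not pass (adjusted p 0.126, glmTreat in edgeR).

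CCND2 shares 12.5% of its exon bases with a predicted protein-coding gene on the same strand, ENSG00000285901, which had 0 counts in all 4 libraries. Of the exon bases of CCND2, 2.03% also lie under the antisense transcript CCND2-AS1, inside the bases shared with ENSG00000285901. CCND2-AS1 had counts of 10 and 11 in LNCaP95 against 0 and 1 in LN95(KO). Counting did not use strand, so reads of CCND2 and CCND2-AS1 cannot be told apart where they overlap. The nearest tested protein-coding genes on either side were not called. TIGAR, 2410 bases beyond CCND2, had counts of 41 and 28 in LNCaP95 against 23 and 36 in LN95(KO), and these groups overlapped. PARP11, on the other side, had counts of 337 and 342 against 250 and 249, giving a log2 fold change of −0.41 (SE 0.10).

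CCND1 encodes cyclin D1, the D cyclin with the highest counts here, and lies on chromosome 11 (plus strand), positions 69455924 to 69469242 (ENSG00000110092.3_2). Its counts were 2848 and 2699 in LNCaP95 against 3369 and 3232 in LN95(KO). Its mean CPM was 150.6 ± 4.90 in LNCaP95 and 183.5 ± 9.35 in LN95(KO) (SD, n = 2). Both knockout libraries were above both LNCaP95 libraries, by a log2 fold change of 0.28 (adjusted p 1.78e-04, SE 0.05), which is 1.22-fold and below the 2-fold limit. It shares 10.4% of its exon bases with LTO1 on the opposite strand, whose own counts were 241 and 267 in LNCaP95 against 313 and 272 in LN95(KO).

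CCND3 encodes cyclin D3 and lies on chromosome 6 (minus strand), positions 41902672 to 42018095 (ENSG00000112576.12_3). Its counts were 742 and 760 in LNCaP95 against 643 and 792 in LN95(KO). The LN95(KO) libraries fell on either side of LNCaP95, at 36.3 and 43.3 CPM against 40.1 and 41.4 CPM. The log2 fold change was −0.03 (adjusted p 0.735, SE 0.08) with a 95% interval from −0.21 to 0.14. Its sign turned to 0.021 when library totals replaced TMM factors and to 0.092 without LN95(KO) replicate 3.

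Levels of different genes were compared per length, as CPM per kilobase of annotated exons. On this scale CCND1 made up 69.8% and 68.7% of the summed D cyclin level in LNCaP95 and 80.9% and 77.5% in LN95(KO). The share of CCND2 went from 15.2% and 15.4% to 6.37% and 6.86%. CCND3 held 15.5% ± 0.675 in LNCaP95 and 14.2% ± 2.07 in LN95(KO) (SD, n = 2), and its groups overlapped. With the longest annotated transcript as length in place of all exons, CCND3 held 28.1% and 26.1%. The ratio of CCND1 to CCND2 was 4.59 and 4.47 in LNCaP95 against 12.7 and 11.3 in LN95(KO). The summed level of the 3 genes was 45.7 ± 0.968 in LNCaP95 and 48.7 ± 0.995 in LN95(KO) (SD, n = 2), which is a description with no test.

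**Figure D2:**
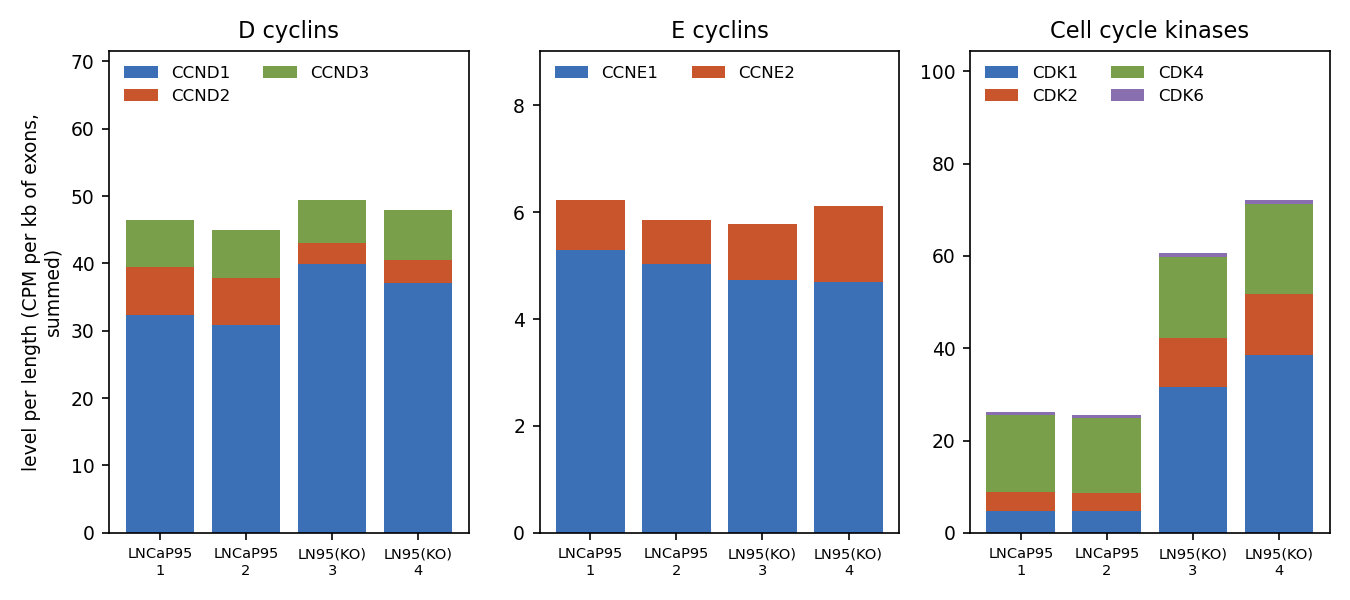
Stacked bars of the per-length level (CPM per kilobase of exons, 1 bar per library) of the D cyclins, the E cyclins and the cell cycle kinases, the last with CDK1 for comparison. The CCND2 segment is smaller in both LN95(KO) libraries while the D cyclin totals stay between 45.0 and 49.4, and the kinase totals go from 25.5 and 26.3 to 60.7 and 72.1 with CDK1 as the tallest segment in LN95(KO).

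Neither E cyclin was called. CCNE1 encodes cyclin E1 and lies on chromosome 19 (plus strand), positions 30302898 to 30315219 of GRCh37 (ENSG00000105173.13_4). It had counts of 241 and 227 in LNCaP95 against 206 and 211 in LN95(KO). In CPM this was 12.7 ± 0.469 and 11.6 ± 0.0541 (SD, n = 2). The values of LN95(KO) lay just below those of LNCaP95, and the log2 fold change was −0.13 (adjusted p 0.309, SE 0.11) with a 95% interval from −0.37 to 0.10. No exon base of CCNE1 is shared with another counted gene.

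The 250 bases before the annotated start of CCNE1 are shown because CCNE1 is a textbook target of E2F factors, 2 of whose genes were called higher in LN95(KO). The sequence is from RefSeq, chr19:29811741-29811990 on the plus strand of GRCh38.p14, and capitals mark the letters of the GC box GGGCGG on either strand.
CCNE1: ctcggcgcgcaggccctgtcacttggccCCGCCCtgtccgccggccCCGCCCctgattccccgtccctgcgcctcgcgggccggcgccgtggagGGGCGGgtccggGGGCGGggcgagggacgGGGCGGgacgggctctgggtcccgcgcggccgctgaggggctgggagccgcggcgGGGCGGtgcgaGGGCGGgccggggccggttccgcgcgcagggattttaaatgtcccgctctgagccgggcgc
It holds 7 GC boxes, a word found in 42.6% of all 35116 promoter windows of this length. The E2F words searched on both strands (TTTCCCGC, TTTCGCGC, TTTGCCGC and TTTGGCGC) occur in 2.79% of all windows and were not found in this window. For the members, 10 windows from 6 genes were searched (CCND3, CCNE1, CDK4, CDK6, CDK7 and CCNH). No window of CCND1, CCND2, CCNE2 or CDK2 was searched. The E2F words were in none of the 10 windows. That says only that these exact letters are absent there.

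CCNE2 (ENSG00000175305.17_3) encodes cyclin E2, which like cyclin E1 activates CDK2. It was among the least read members, with counts of 75 and 67 in LNCaP95 against 83 and 114 in LN95(KO). The LN95(KO) libraries, at 4.68 and 6.24 CPM, both lay above LNCaP95, at 4.06 and 3.65 CPM, but they lay 0.41 apart from each other on the log2 scale. The log2 fold change was 0.50 (adjusted p 0.0258, SE 0.18), which is 1.42-fold and was not called. Without LN95(KO) replicate 4 it was 0.28 (adjusted p 0.261), without LNCaP95 replicate 2 it was 0.43 (adjusted p 0.120), and without LN95(KO) replicate 3 it was 0.70 (adjusted p 0.00956). Of the exon bases of CCNE2, 37.1% lie under other genes, nearly all of them under INTS8 on the opposite strand. INTS8 had counts of 937 and 938 in LNCaP95 against 976 and 950 in LN95(KO), so the level of CCNE2 is uncertain.

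Per length, CCNE1 made up 85.2% and 85.8% of the summed E cyclin level in LNCaP95 and 81.6% and 76.8% in LN95(KO). The summed level was 6.04 ± 0.256 in LNCaP95 and 5.95 ± 0.228 in LN95(KO) (SD, n = 2), and these groups overlapped.

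CDK2, the kinase partner of E and A cyclins, had the largest change of the 10 members. The gene lies on chromosome 12 (plus strand), positions 56360565 to 56366573 of GRCh37 (ENSG00000123374.10_2). Its counts were 283 and 280 in LNCaP95 against 730 and 932 in LN95(KO). Both knockout libraries were far above the LNCaP95 libraries, which were nearly equal, and replicate 4 was above replicate 3 by 0.31 on the log2 scale. The mean CPM was 15.3 ± 0.0322 in LNCaP95 and 46.1 ± 6.94 in LN95(KO) (SD, n = 2). The log2 fold change was 1.59 (adjusted p 3.06e-10, SE 0.10), which is 3.02-fold, and it lay between 1.43 and 1.74 when any single library was left out. Of all genes tested, 9.71% had a change of at least this size.

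CDK2 shares 14.5% of its exon bases with the lncRNA ENSG00000258554, which had 0 counts in every library, and 2.29% with PMEL, a melanosome gene on the opposite strand. PMEL was itself called higher, with counts of 39 and 47 in LNCaP95 against 95 and 74 in LN95(KO) and a log2 fold change of 1.01 (adjusted p 5.87e-04, SE 0.21). The reads of the 2 genes cannot be told apart over the shared bases, and reads falling on both were left out in counting. RAB5B, 1124 bases away on the other side, had counts of 515 and 612 in LNCaP95 against 516 and 510 in LN95(KO) and was not called (log2 fold change −0.10, SE 0.09).

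CDK4 and CDK6, the kinases of the D cyclins, were not called. CDK4 lies on chromosome 12 (minus strand), positions 58141510 to 58149796 of GRCh37 (ENSG00000135446.16_4). It had counts of 962 and 920 in LNCaP95 against 970 and 1109 in LN95(KO), and in CPM 52.1 and 50.2 against 54.7 and 60.7. Both LN95(KO) libraries were above LNCaP95, by a log2 fold change of 0.18 (adjusted p 0.0331, SE 0.07), or 1.13-fold. The adjusted p was over 0.05 without LN95(KO) replicate 4 (0.218), without LNCaP95 replicate 1 (0.0693) and without LNCaP95 replicate 2 (0.191). It was also over 0.05 with upper quartile factors (0.0873) and with DESeq2 (0.206).

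CDK4 overlaps a gene at each end. TSPAN31, on the opposite strand, covers 44.2% of the exon bases of CDK4 and had counts of 166 and 173 in LNCaP95 against 188 and 168 in LN95(KO), so the level of CDK4 is uncertain. At the 5′ end lies MARCHF9, a ubiquitin ligase gene whose body overlaps CDK4 without sharing exon bases. MARCHF9 was called lower, with counts of 753 and 731 in LNCaP95 against 273 and 257 in LN95(KO) and a log2 fold change of −1.45 (adjusted p 1.13e-10, SE 0.08). The difference between these neighbours was not tested.

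The 250 bases before the RefSeq start of CDK4 are shown. Where this window lies relative to MARCHF9 was not examined, since the genome builds differ. The sequence is from RefSeq, chr12:57752311-57752560 on the minus strand of GRCh38.p14, and capitals mark the E-box CACGTG, the word that MYC and its partner MAX are known to bind.
CDK4: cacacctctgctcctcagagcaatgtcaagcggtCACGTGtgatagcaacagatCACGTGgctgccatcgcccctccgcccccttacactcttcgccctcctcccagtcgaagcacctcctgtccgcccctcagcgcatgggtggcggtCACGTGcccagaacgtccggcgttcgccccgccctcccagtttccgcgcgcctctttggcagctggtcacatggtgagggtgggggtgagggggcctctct
The window holds 3 E-boxes, which begin at −216, −196 and −101 relative to the start. An E-box of these letters occurs in 6.35% of all promoter windows. Among the members searched it was otherwise found for CDK7, where 2 overlapping windows hold the same 1 site.

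CDK6 lies on chromosome 7 (minus strand), positions 92234235 to 92465887 of GRCh37 (ENSG00000105810.9_2). Its counts were 158 and 156 in LNCaP95 against 177 and 173 in LN95(KO). Its CPM was 8.53 ± 0.0305 and 9.73 ± 0.368 (SD, n = 2), and the groups did not overlap. The log2 fold change was 0.19 (adjusted p 0.205, SE 0.13) with a 95% interval from −0.08 to 0.45. Per length CDK4 supplied 95.9% to 96.0% of the summed level of CDK4 and CDK6 in LNCaP95 and 95.6% to 96.2% in LN95(KO), so this share overlapped between the groups. The remainder, CDK6, was 4.05% in LNCaP95 over all exons and 2.60% over the longest transcript.

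Within the sum of CDK2, CDK4 and CDK6, the per-length share of CDK2 was 18.4% and 18.9% in LNCaP95 against 36.4% and 39.2% in LN95(KO). The ratio of CDK2 to CDK4 was 0.234 and 0.242 in LNCaP95 against 0.599 and 0.669 in LN95(KO), and that of CDK2 to CCNE1 was 0.744 and 0.781 against 2.24 and 2.80. Both ratios were higher in each LN95(KO) library than in either LNCaP95 library. Against CDK1, the kinase of mitosis, the ratio of CDK2 was lower, at 0.335 and 0.340 in LN95(KO) and 0.818 and 0.843 in LNCaP95.

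CDK7 and CCNH, which form the CDK-activating kinase with MNAT1, were not called. CDK7 lies on chromosome 5 (plus strand), positions 68530622 to 68573257 (ENSG00000134058.11_3), and shares no exon base with another counted gene. It had counts of 506 and 457 in LNCaP95 against 599 and 660 in LN95(KO), or 26.2 ± 1.74 and 35.0 ± 1.64 CPM (SD, n = 2). The LN95(KO) libraries were both above LNCaP95, and the log2 fold change of CDK7 was 0.42 (adjusted p 2.29e-04, SE 0.08), which is 1.34-fold. Its neighbours MRPS36 and CCDC125 were not called either, at 0.57 (SE 0.12) and 0.32 (SE 0.07) on the log2 scale.

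CCNH lies on chromosome 5 (minus strand), positions 86614233 to 86708747 (ENSG00000134480.14_3). Its counts were 1103 and 1131 in LNCaP95 against 1103 and 1264 in LN95(KO). In CPM this was 60.7 ± 1.41 and 65.7 ± 4.90 (SD, n = 2), with LN95(KO) replicate 3 only just above LNCaP95 replicate 2. The log2 fold change was 0.12 (adjusted p 0.139, SE 0.07) with a 95% interval from −0.02 to 0.25, and the adjusted p was 0.0190 without LN95(KO) replicate 3. RASA1 on the opposite strand covers 12.9% of the exon bases of CCNH and had 950 and 985 counts in LNCaP95 and 822 in each LN95(KO) library. The lncRNA ENSG00000285190, also on the opposite strand, covers 8.29%, so that 21.2% of the exon bases of CCNH are shared. It had counts of 1 and 3 in LNCaP95 against 0 and 1 in LN95(KO).

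MNAT1, the assembly factor that completes this kinase, had counts of 501 and 444 in LNCaP95 against 357 and 410 in LN95(KO). Its log2 fold change was −0.27 (adjusted p 0.0182, SE 0.09), opposite in sign to CDK7 and not called.

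**Figure D3:**
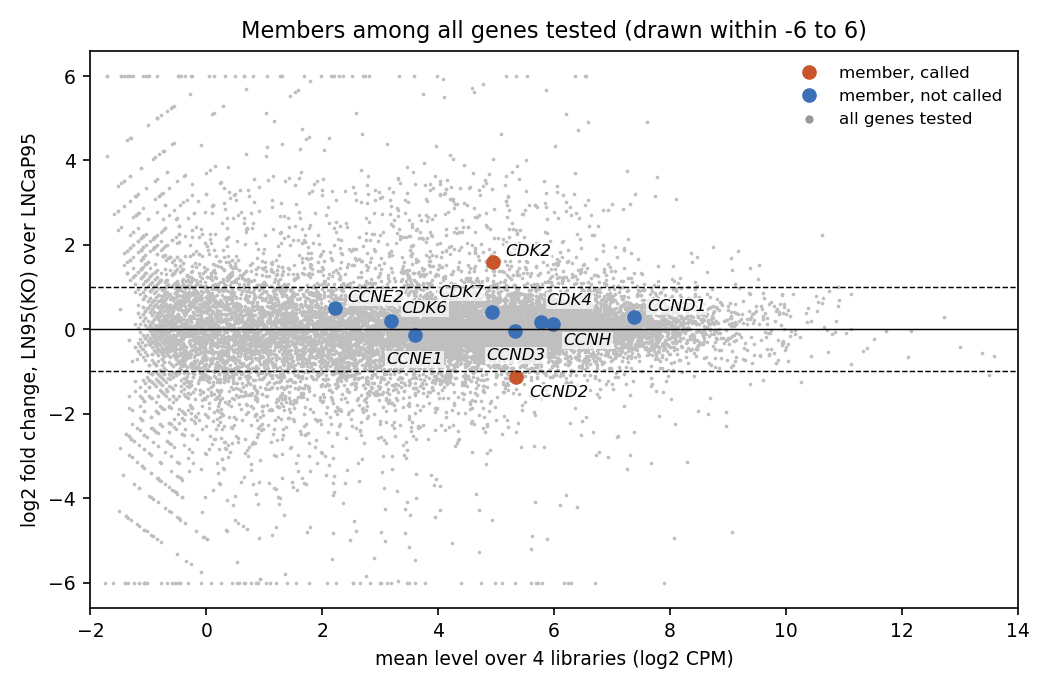
Log2 fold change of LN95(KO) over LNCaP95 against the mean level over the 4 libraries (log2 CPM) for all 15626 genes tested (grey), with the 10 members labelled (orange, called; blue, not called). The dashed lines mark a 2-fold change, CDK2 lies above them at 1.59 and CCND2 just below them at −1.12, and the other members lie between −0.13 and 0.50.

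In LNCaP95 the order of the per-length levels was CCND1 (31.6), CDK4 (16.5), CDK7 (10.8), CCNH (10.1), CCND3 (7.08), CCND2 (6.99), CCNE1 (5.16), CDK2 (3.93), CCNE2 (0.877) and CDK6 (0.697). CDK7 and CCNH overlapped between libraries, as did CCND3 and CCND2, and the other neighbours in this order did not. In LN95(KO) CDK2 stood in place 4 instead of place 8, at 11.9, and overlapped with CCNH at 11.0. CCND2 stood in place 8 instead of place 6, at 3.22, below CCNE1 at 4.71. With the longest annotated transcript as length, an alternative chosen after seeing the data, CCNH (25.4 in LNCaP95 and 27.5 in LN95(KO)) stood in place 3 ahead of CDK7 (18.0 and 24.0) in both lines. CDK2 then stood in place 8 in LNCaP95 and in place 5 in LN95(KO), while CCND2 kept places 6 and 8. Under both lengths CCND1 and CDK4 led in both lines, and CCNE2 and CDK6 came last.

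The genes whose centred log2 CPM over the 4 libraries lay nearest to a called member were sought among 10045 protein-coding genes averaging at least 100 normalized counts. For CDK2 these were GLA, LMNB1 and SMC4, at Euclidean distances of 0.0260, 0.0393 and 0.0628 and log2 fold changes of 1.60, 1.57 and 1.62. They encode a lysosomal galactosidase, the nuclear lamina protein lamin B1 and a condensin subunit. For CCND2 they were MFSD10, SUSD6 and CST3, at distances of 0.0138, 0.0217 and 0.0294, and their log2 fold changes lay between −1.12 and −1.10. Likeness was measured over 4 libraries and is a description.

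Of 49 other listed genes, 48 were tested (GTF2H4 was at 0 counts in all 4 libraries). They include regulators of the G1 cyclins and kinases, and also cyclins and kinases of later phases and of transcription. In LN95(KO) 11 were called higher and 0 lower, against 8.86% and 9.13% of all genes. Of these 11, 5 were the later cyclins and CDK1. An adjusted p under 0.05 was found for 31, 24 higher and 7 lower. For the lists below, the shares over all genes tested were 18.0% called and 59.8% with an adjusted p under 0.05. At an unadjusted p under 0.05 the counts were also 24 higher and 7 lower, and DESeq2 called 11 higher and 0 lower, with the same count as edgeR in each list. The median log2 fold change was 0.19. The calls fell in 4 of the 8 lists. Each list is described by its counts and by named genes, and no test was run over a list.

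Of the 7 inhibitors of the INK4 and CIP/KIP families, 2 were called higher and 0 lower, with a median log2 fold change of 0.52. An adjusted p under 0.05 was found for 4, all of them higher. CDKN2C, an inhibitor of CDK4 and CDK6, had a count of 104 in both LNCaP95 libraries against 484 and 572 in LN95(KO), giving a log2 fold change of 2.37 (adjusted p 8.48e-12, SE 0.11). CDKN2A, an inhibitor of the same kinases, had counts of 51 and 41 against 114 and 108, giving a log2 fold change of 1.30 (adjusted p 1.05e-05, SE 0.18), and shares 15.3% of its exon bases with other genes. Both were higher in each LN95(KO) library than in either LNCaP95 library. CDKN1A, the p53 target that inhibits CDK2, had counts of 2798 and 2763 in LNCaP95 against 3589 and 4193 in LN95(KO) at a log2 fold change of 0.52 (adjusted p 6.08e-07), which was not called. CDKN1B, another inhibitor of CDK2, had counts of 2212 and 2118 against 1990 and 1994 and a log2 fold change of −0.09 (adjusted p 0.163).

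Of the 3 pocket proteins, 0 were called and 1 had an adjusted p under 0.05. RB1, the retinoblastoma gene, had counts of 1168 and 1259 in LNCaP95 against 1246 and 1349 in LN95(KO), with a log2 fold change of 0.13 (adjusted p 0.0847, SE 0.06). Of the 7 E2F and DP factors, 2 were called higher and 6 had an adjusted p under 0.05 (5 higher, 1 lower). E2F1 had counts of 331 and 354 in LNCaP95 against 1819 and 2341 in LN95(KO), giving a log2 fold change of 2.63 (adjusted p 7.47e-10, SE 0.11). E2F2 had counts of 26 and 30 against 253 and 409, giving a log2 fold change of 3.59 (adjusted p 3.92e-07, SE 0.26). These factors switch on genes of S phase, and both rose far above the LNCaP95 libraries.

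Of the 4 genes for assembly and activation of the kinases, 2 were called higher and all 4 had an adjusted p under 0.05 (3 higher, 1 lower). CDC25A, the phosphatase that removes the inhibitory phosphate from CDK2, had counts of 135 and 112 in LNCaP95 against 288 and 323 in LN95(KO), giving a log2 fold change of 1.34 (adjusted p 5.70e-08, SE 0.12). CKS1B, a small subunit that binds CDK1 and CDK2, had counts of 462 and 428 against 1336 and 1692, giving a log2 fold change of 1.80 (adjusted p 1.97e-10, SE 0.09). Neither overlapped between the groups. Of the 7 genes for turnover of G1 cyclins 0 were called, with 5 at an adjusted p under 0.05 (2 higher, 3 lower). Of the 6 tested TFIIH genes 0 were called, with 4 at an adjusted p under 0.05, and of the 9 atypical and transcription cyclins and kinases 0 were called, with 2 under 0.05.

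All 5 later cyclins and kinases of the cycle were called higher, with log2 fold changes from 1.73 to 3.54. CCNA2, the A cyclin that binds CDK2 and CDK1, had counts of 88 and 75 in LNCaP95 against 836 and 1016 in LN95(KO), giving a log2 fold change of 3.54 (adjusted p 5.81e-14, SE 0.12). CDK1 had counts of 348 and 334 against 2189 and 2755, giving a log2 fold change of 2.89 (adjusted p 8.48e-12, SE 0.09). The B cyclins CCNB1 and CCNB2, which bind CDK1 in mitosis, gave log2 fold changes of 2.23 (SE 0.08) and 2.72 (SE 0.11).

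Set beside these genes, the D and E cyclins, CDK4 and CDK6 held smaller shares of cyclin and kinase RNA in LN95(KO), and CDK2 a larger one. The sums include CCNA2, CCNB1, CCNB2 and CDK1, all called higher, so a gene at a steady level must lose share. Of the summed per-length level of the D, E, A2, B1 and B2 cyclins, D cyclins held 62.6% and 63.7% in LNCaP95 against 30.7% and 26.6% in LN95(KO), while their own summed level was 45.7 and 48.7 CPM per kilobase. E cyclins held 8.40% and 8.29% in LNCaP95 against 3.60% and 3.38% in LN95(KO). Of CDK1, CDK2, CDK4 and CDK6 together, CDK4 held 64.0% and 63.6% in LNCaP95 against 29.1% and 27.2% in LN95(KO), and CDK2 held 15.2% ± 0.293 against 17.8% ± 0.528 (SD, n = 2). The size of these kinase shares depends on the length used. With unshared exon bases as length, chosen after seeing the data, CDK4 held a mean of 74.4% in LNCaP95 and 40.1% in LN95(KO). On that length CDK4 (41.3%) stood just above CDK1 (41.1%) in LN95(KO) replicate 3, and below it in replicate 4. These shares are a description of the 4 libraries, and every one of them was set apart between the groups.

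**Figure D4:**
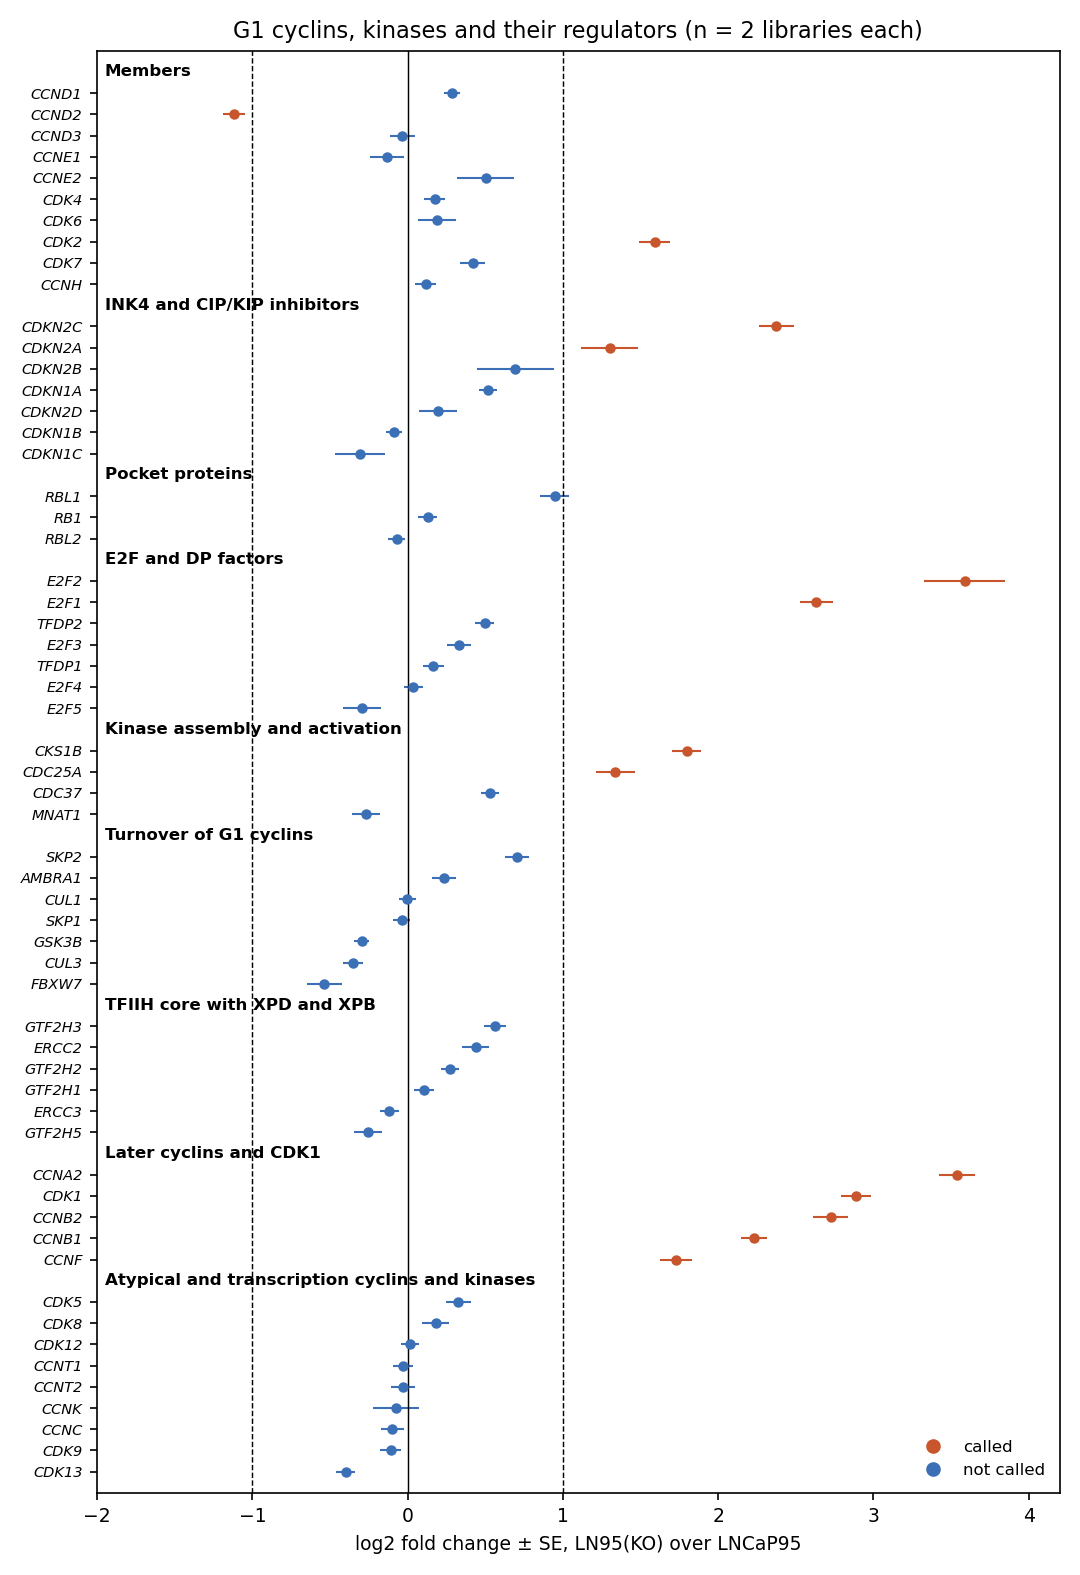
Log2 fold change of LN95(KO) over LNCaP95 with its SE for the 10 members and the 48 other listed genes that were tested, grouped by role. There are n = 2 libraries per group. Orange marks called genes, blue genes not called, and dashed lines a 2-fold change. The members lie between −1.12 and 1.59, the later cyclins and CDK1 between 1.73 and 3.54, and E2F1 and E2F2 at 2.63 and 3.59.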

How the data were processed

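RNA-Seq was analysed in 2 LNCaP95 and 2 LN95(KO) libraries, grouped by their labels. The deposited files hold raw counts per gene, which the authors made with HISAT2 (2.1.0) and HTSeq on hg19, per the submitters' processing notes, without use of strand. HTSeq leaves out reads on more than 1 gene or with more than 1 alignment. Close paralogs can lose reads at that step. Summary lines (entries assigned to no single gene, including ambiguous and unaligned reads, 23.8% to 27.5% of all entries) entered neither library sizes nor tests. The series table and the single files differed in 0 cells.

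Groups were compared by the quasi-likelihood method in edgeR 4.0.16 under R 4.3.3, using TMM factors, robust estimation, filterByExpr (minimum count 10, minimum total count 15) and Benjamini-Hochberg adjustment. Calls required an adjusted p under 0.05 and a fold over 2, the thresholds of the study. The study used DESeq2, which was run here as an alternative (version 1.42.0). The SE was the absolute log2 fold change divided by the root of F, and 95% intervals used the same SE. In simulated data, 100% of 200 genes changed 2-fold or 4-fold had an adjusted p under 0.05. The fold criterion of a call was not applied there. The changed genes had expected counts of at least 100, so genes with fewer reads are not covered. Replicates differed by more than sampling noise (chi-square per degree of freedom 2.44 and 3.58). No permutation test was used, since 2 libraries against 2 cannot give a two-sided p below 0.333.

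Exons, lengths and gene positions came from GENCODE on GRCh37, a later release than was counted. Gene length was the union of annotated exons. Promoter windows came from RefSeq (GRCh38.p14), and CCND1, CCND2, CCNE2 and CDK2 were not analysed there. The depth was 17330338 to 18813193 gene reads. A count of 0 allows up to 3 counts, or 0.160 to 0.173 CPM on library totals without TMM factors, which covers counting error only.

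The members and lists were chosen with earlier results of these data known. Named genes were the 10 members and UGT2B17, up to 4 called genes of each other list, 7 regulators whatever their values (CDC25A, MNAT1, CDKN1A, CDKN1B, RB1, CCNA2 and CDK1), the 3 genes most like each called member, and neighbours and genes with shared exons. 1 luminal marker is not reported here.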

Additional observations from a re-analysis of the deposited data

Results flagged for a closer look

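Reads that did not align, which no comparison of the report used, made up 8.05% and 7.71% of entries in the LN95(KO) libraries, above the 3.85% and 3.96% in the LNCaP95 libraries.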

How the results depend on the processing

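CDK2 was called under all 11 alternatives and CCND2 under 10. The number of members called went from 2 to 1 when genes were tested against a 2-fold change with glmTreat, where CDK2 passed and CCND2 did not, and to 6 with no fold criterion. It was 2 under every other alternative, with 1 library left out at a time included. The same settings gave 1687 and 9349 calls over the whole table against 2811 (2312 with DESeq2, 3362 with no filter on low counts, 2539 to 2777 with 1 library left out). For the other listed genes the count went from 11 to 31 with no fold criterion and was 10 to 12 otherwise. CCND3 changed sign with library totals (0.021), and with 1 library left out it lay between −0.17 and 0.092. CCNE2 had an adjusted p under 0.05 in 7 of 10 alternatives to the fit, CDK4 in 5 and CCNH in 2. CCND1 and CDK7 had one in all 10, and CCND3, CCNE1 and CDK6 in 0. Library totals moved the median of all genes by 0.055 and upper quartile factors by −0.039 (log2). With the longest transcript as length, CCND3 held 28.1% of the D cyclin level in LNCaP95 and 26.1% in LN95(KO). With unshared exon bases as length, an alternative chosen after seeing the data, CDK2 held 13.5% and 29.3% of the level of CDK2, CDK4 and CDK6. Fits with 1 library in a group assume that it varies like the other group. No paired analysis was possible because LNCaP95 and LN95(KO) carry different replicate numbers. Among the 10 members depth limits CCNE2 most, with 67 to 114 counts per library, and protein levels were not measured in these files.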
